A study of Mus musculus with 56 samples.

Results

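This account follows 9 genes whose products restrain T cell receptor or cytokine signalling: the anergy-related ubiquitin ligases *Cblb*, *Itch* and *Rnf128*, the diacylglycerol kinases *Dgka* and *Dgkz*, the phosphatases *Ptpn6*, *Ptpn22* and *Ptpn2*, and the SOCS family gene *Cish*. They were chosen by name, 9 of the 55359 genes counted, and all 9 passed the filter on low counts. The sequenced CD8+ T cells of C57BL/6 female mice bound an OVA:Kb tetramer and are called TFGS because they recognise the OVA peptide that the fetus and the skin graft share. The cells were sorted by tetramer from spleen and lymph nodes of each mouse, 200 cells per sample, and the design asks how a pregnancy with 2W-OVA.BALB/c males alters naive and graft-sensitized TFGS. Naive mice (n = 3) had no treatment, and Sensitized mice (n = 4) had rejected a 2W-OVA.BALB/c skin graft. Mice of the N+P groups were pregnant without a graft, and their PD1- subset (N+P C1, n = 3) and PD1+CD73+ subset (N+P C5, n = 3) were sorted separately. Mice of the S+P groups were grafted and then pregnant, and gave a PD1- subset (S+P C4, n = 6), a PD1+CD73+ subset (S+P C5, n = 6) and a PD1+CD73- subset (S+P C7, n = 5). The study's methods give mice of 8 to 12 weeks at the start. For its flow cytometry, Sensitized mice were taken at day 30 or later after the graft, and N+P and S+P mice at day 0 to 3 post-partum. Grafted mice were mated at day 30 or later, so time since the graft may also differ between S+P and Sensitized. The gates define the subsets by PD1 and CD73, so subset and activation state are bound together. Subsets of the same number are taken to come from the same mouse, by their column names.

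A T cell that sees antigen without full help can become anergic, and part of that state is an added layer of brakes on the antigen receptor. CBL-B, ITCH and GRAIL (the product of *Rnf128*) are E3 ubiquitin ligases that tag signalling proteins for removal or relocation, and diacylglycerol kinases turn diacylglycerol, the lipid that activates RasGRP1 and PKC-theta, into phosphatidic acid. SHP-1 (*Ptpn6*) and PEP (*Ptpn22*) remove phosphates from kinases next to the receptor, TC-PTP (*Ptpn2*) acts on JAK, STAT and Src family proteins, and CIS (*Cish*) is a STAT5-induced protein that dampens cytokine and receptor signalling.

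The 56 libraries held 6636532 to 32625243 counts (median 17299849) and were summed to 30 samples. 1 library with the same counts in 2 groups was left out of both, and 1 near-identical pair in S+P C7 was counted as 1 sample, replicate 1. Between 7436 and 26805 genes were detected per sample, and 3 samples had fewer than 9000, namely replicates 2 and 3 of the S+P C4 group and, in S+P C7, replicate 3. Several members were near 0 in these 3 samples, and the main results are given with and without them. S+P C7 replicate 3 also held erythroid markers at 18829 CPM, dendritic cell markers at 1300.5 CPM and NK cell markers at 469 CPM, beside CD8 T cell markers at 6213 CPM. CD8 T cell markers summed to 4929 to 9148 CPM in all samples, and *Cd4* averaged 0.2 CPM. Sums of the marker lists of CD4 T and other cells are given below. Levels are as CPM, counts scaled to a common library size with TMM factors, and in bulk samples fewer cells that express a gene and less RNA per cell cannot be told apart.

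In edgeR's quasi-likelihood fit of all 30 samples, a gene was called at an adjusted p under 0.1 with an absolute log2 fold change above 0.9. No member was called, 0 of 9 in each of 11 comparisons. Among all 19657 genes tested the share called was 0.153% in Sensitized against Naive, 0% in N+P C1 against Naive, 0.0458% in N+P C5 against Naive, while N+P C5 against N+P C1 had 0.00509%. It was 0.00509% in S+P C4 against Sensitized, 0.0712% in S+P C5 against Sensitized and 0.0305% in S+P C7 against Sensitized. It was 0.0305% in S+P C5 against S+P C4, 0% both in S+P C7 against S+P C5 and in S+P C5 against N+P C5, and 0.0254% for the difference between the 2 effects of pregnancy. These effects are S+P C5 against Sensitized and N+P C5 against Naive. The labels of Naive and Sensitized name no PD1 or CD73 gate. Pregnancy and the PD1+CD73+ gate therefore cannot be told apart in either effect. At an unadjusted p under 0.05, 8 of the 99 member values stood out, and 5 of these were *Rnf128*. In the same order of comparisons, the share of all genes at that level was 7.84%, 3.29%, 5.41%, 4.36%, 12.7%, 13%, 10.2%, 13.4%, 12.7%, 5.91% and 6.44%. DESeq2, with which the study used these thresholds, made 6 calls in 6 comparisons. It called *Rnf128* higher in N+P C1 and N+P C5 against Naive (3.76% and 5.07% of all genes called) and against Sensitized in all 3 subsets of the grafted mice (S+P C4 with 4.63%, S+P C5 with 4.98%, S+P C7 with 3.77%), and *Cish* lower in S+P C5 against S+P C4 (4.87%). Without the 3 samples of few detected genes, edgeR called *Rnf128* and *Dgkz* in S+P C5 against Sensitized (1.03% of all genes called) and, against Naive, *Rnf128* in N+P C5 (0.609%).

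*Rnf128* (ENSMUSG00000031438, GRCm39 chrX:138463952-138574139, plus strand) had the widest range of the 9 members. The 250 bases before its RefSeq transcription start are shown because NFAT and EGR factors are known regulators of anergy genes, and because this gene varied most between groups. The sequence runs 5′ to 3′ on the plus strand at GRCm39 chrX:138511119-138511355, 47167 bases inside the annotated gene start, with the last 13 bases left out as annotated exon. The window was placed on GRCm39 by exact match of the RefSeq sequence.
Rnf128: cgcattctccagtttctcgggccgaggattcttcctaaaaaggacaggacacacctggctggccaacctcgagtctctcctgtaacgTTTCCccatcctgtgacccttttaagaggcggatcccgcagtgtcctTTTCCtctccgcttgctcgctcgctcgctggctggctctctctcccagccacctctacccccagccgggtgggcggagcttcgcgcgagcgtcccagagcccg
Capitals mark the NFAT core GGAAA, read on the opposite strand, at 163 and 116 bases before the start. That core lies in 55.6% of 32851 windows of this length before RefSeq starts, on either strand. The EGR motif GCGNGGGCG (4.70% of windows), the AP-1 motif TGANTCA (6.75%), the STAT motif TTCNNNGAA (7.02%) and the FOXO motif GTAAACA (3.17%) had no match here. Over the 7 members with a window, 8 of 12 windows searched held the NFAT core, beside the 55.6% of all windows. The STAT motif lay in 1 window, of *Ptpn22*. No window of *Itch* or *Ptpn2* was searched, and *Dgka* had several. Some windows, such as those of *Cblb* and *Cish*, lay wholly within annotated exons. A match of letters describes the window and is not a bound site.

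In cells of mice without pregnancy *Rnf128* was at the limit of counting. The 3 Naive samples held 1, 0 and 0 counts and the 4 Sensitized samples 1, 2, 0 and 0. The PD1+CD73+ cells after pregnancy lay above both. N+P C5 samples held 854, 19 and 809 counts, which were 17.9, 0.556 and 25.1 CPM. S+P C5 samples ranged from 2.74 to 68.6 CPM with a median of 10.7, from at least 60 counts each. Every N+P C5 sample was above every Naive sample and every S+P C5 sample above every Sensitized sample, as were 7.41% and 1.45% of all genes. Pooled over samples, the level in S+P C5 was 924 times that in Sensitized, with a 95% interval from counting alone of 316 to 4482 (3925 counts against 3). In N+P C5 it was 1194 times that in Naive, with an interval of 214 to 47169 (1682 counts against 1). These intervals cover counting error only, and reads without molecular identifiers are not independent molecules.

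The spread between mice was wide beside these ratios, and with controls at so few counts the fitted fold change depends on the prior count. For *Rnf128*, edgeR gave a log2 fold change of 9.47 ± 2.6 (SE) for S+P C5 against Sensitized with an adjusted p of 0.274 over all 30 samples, and 9.58 ± 2.06 with an adjusted p of 0.0195 without the 3 samples of few genes. For N+P C5 compared with Naive it gave 9.75 ± 3.09 with an adjusted p of 0.761, and 9.81 ± 2.46 with 0.0779 without them. DESeq2 gave adjusted p values of 1.39e-06 and 0.000408. At the thresholds for a call, DESeq2 called 4.98% and 5.07% of all genes in these comparisons. None of the 3 samples belongs to the 4 groups compared, and why the adjusted p moved without them was not tested. The difference between the effects of pregnancy in sensitized and in naive mice was -0.28 ± 2.06 on the log2 scale (adjusted p = 1). Without the 3 samples it was -0.23 ± 1.71 (adjusted p = 1). Each edgeR SE is the absolute log2 fold change divided by the square root of the F statistic. For *Rnf128* the SE of the difference, 2.06, is below those of its 2 parts, 2.6 and 3.09. It therefore does not measure the precision of that difference.

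*Rnf128* was also detected in the other subsets after pregnancy, at lower levels. N+P C1 samples held 0.332, 3.59 and 0 CPM. S+P C4 samples ranged from 0 to 10.4 CPM with a median of 1.73. S+P C7 samples held 3.78, 0, 8.30, 10.8 and 2.62 CPM, and the sample at 0 was replicate 3, 1 of those with few genes. S+P C4 and N+P C1 overlapped with cells of mice without pregnancy, and without its replicate 3 each S+P C7 sample was above each Sensitized sample, as were 2.7% of all genes (adjusted p = 0.114, log2 fold change 7.83 ± 1.95). The order of mean levels was S+P C5, N+P C5, S+P C7, S+P C4, N+P C1, Sensitized and Naive, and each neighbour overlapped the next. S+P C5 was not shown to differ from S+P C4 (2.46 ± 1.56, adjusted p = 0.574, and 1.88 ± 1.38, adjusted p = 0.636, without the samples of few genes) or from S+P C7 (S+P C7 against S+P C5 -2.05 ± 1.64, adjusted p = 0.915, and -1.76 ± 1.37, adjusted p = 0.737, without them).

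**Figure D1:**
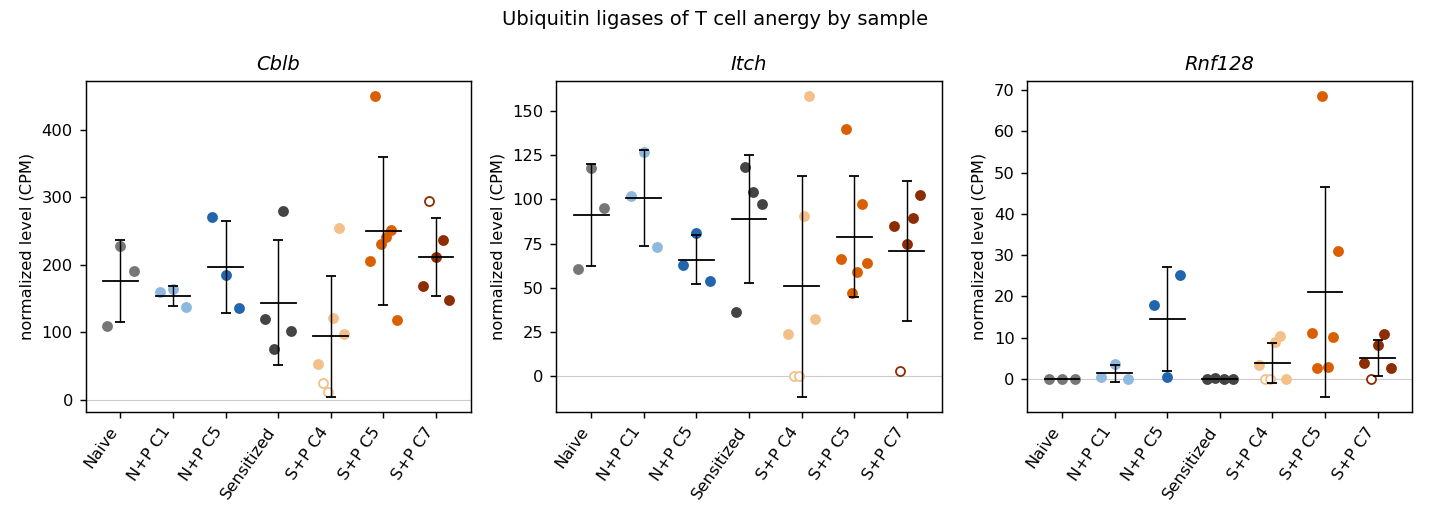
Normalized level (CPM) of the ubiquitin ligases in each of 30 samples by group; lines and bars are the mean and SD, and open circles are the 3 samples with under 9000 detected genes. *Rnf128* lies at or near 0 in all Naive and Sensitized samples and between 2.74 and 68.6 CPM in S+P C5, while *Cblb* and *Itch* overlap between groups.

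The technical libraries of a sample often differed in whether *Rnf128* was counted at all. *Rnf128* had more than 3 counts in 9 of 10 S+P C5 libraries, 9 of 10 S+P C7 libraries and 4 of 6 N+P C5 libraries. The S+P C7 count includes both libraries of the near-identical pair. In Naive and Sensitized, 0 of 5 and 0 of 8 libraries had more than 3 counts of *Rnf128*, and the highest counts were 1 and 2. Of 15 mice and subsets with 2 libraries and over 3 counts in at least 1 of them, 8 had over 3 counts in both. N+P C5 replicate 1 held 854 counts in 1 library and 0 in the other. The median ratio between the 2 libraries of a sample was 2.94-fold for *Rnf128* and between 1.22-fold (*Ptpn22*) and 1.99-fold (*Cish*) for the other members.

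**Figure D2:**
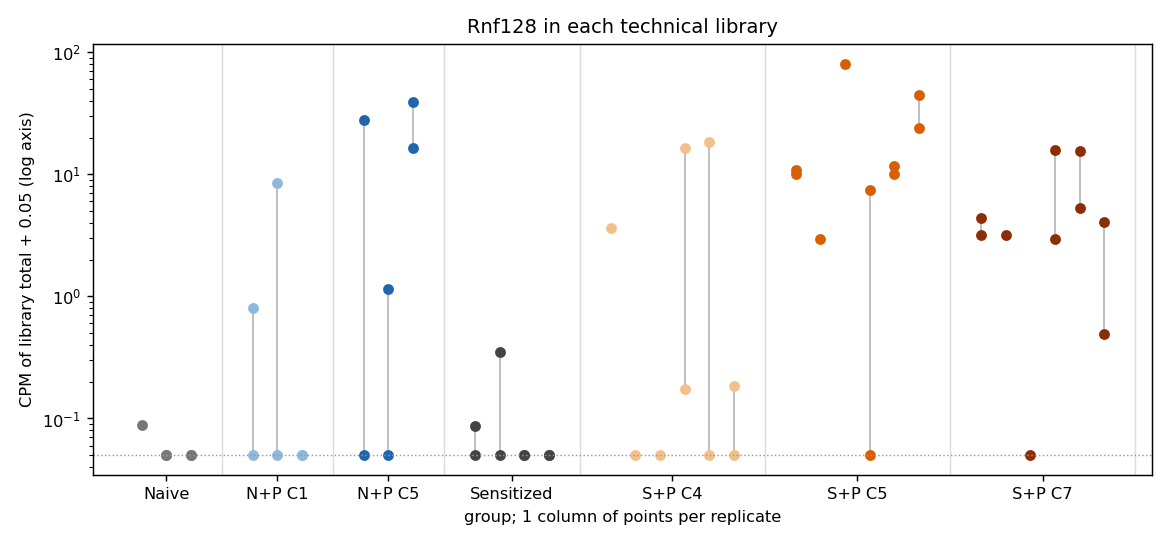
*Rnf128* in each library, as CPM of the library total plus 0.05 on a log axis; each column of points is 1 replicate, lines join its technical libraries, and the dotted line marks 0 counts. The near-identical pair is drawn as S+P C7 replicates 1 and 2. Several samples have 1 library at 0 and the other well above it, and all Naive and Sensitized libraries stay at 2 counts or fewer.

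*Cblb* (ENSMUSG00000022637, chr16:51851588-52028729), the ligase that sets the need for CD28 help, was more abundant by length, at a median of 13.1 RPKM against 0.699 RPKM for *Rnf128*. Naive samples held 109, 228 and 191 CPM and Sensitized samples 120.5, 75.4, 280.1 and 101 CPM. S+P C4 samples ranged from 11.4 to 255 CPM (median 75.5) and S+P C5 samples from 119 to 450.1 CPM (median 237). The 2 lowest S+P C4 values, 25.8 and 11.4 CPM, were the samples of few genes. S+P C5 stood 1.41 ± 0.49 above S+P C4 on the log2 scale, at an unadjusted p of 0.00732 and an adjusted p of 0.294, and the groups overlapped. Without those samples the difference was 0.90 ± 0.39 (adjusted p = 0.351). N+P C1 held 159.8, 165 and 137 CPM, N+P C5 271, 184 and 137 CPM, and S+P C7 168, 295, 212, 238 and 148 CPM, all within the range of the other groups. S+P C5 against Sensitized gave 0.79 ± 0.55 (adjusted p = 0.728), and 0.81 ± 0.39 (adjusted p = 0.277) without the samples of few genes.

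*Itch* (ENSMUSG00000027598, chr2:154975388-155069532), a HECT-type ligase, had no difference between groups that exceeded the spread. Its group means ran from 50.8 ± 62.2 CPM (SD, n = 6) in S+P C4 to 101 ± 27 CPM (n = 3) in N+P C1. The samples of few genes held 0, 0 and 2.85 CPM, against 23.8 to 158 CPM in the other 27. Without them the mean of S+P C4 was 76.2 ± 62.3 CPM (n = 4) and that of S+P C7 87.8 ± 11.5 CPM (n = 4). The smallest unadjusted p over the 11 comparisons was 0.439, for S+P C4 against Sensitized, and without the samples of few genes it was 0.251, for N+P C5 against N+P C1.

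*Dgkz* (ENSMUSG00000040479, chr2:91763164-91806691, minus strand), which encodes the diacylglycerol kinase known as the main limiter of Ras signalling in T cells, was highest in the PD1+CD73+ cells of both kinds of mice. Naive samples held 69.0, 71.4 and 66.3 CPM and N+P C5 samples 128, 169.7 and 155 CPM. Sensitized samples held 101, 88.5, 54.3 and 78.5 CPM. S+P C5 samples ranged from 148 to 198 CPM with a median of 179. Both PD1+CD73+ groups lay wholly above their counterparts without pregnancy, and S+P C5 also lay wholly above S+P C4, which ranged from 0.199 to 137 CPM (median 94.7). Among all genes, 7.41% lay wholly higher in N+P C5 than in Naive, 1.45% in S+P C5 than in Sensitized and 0.585% in S+P C5 than in S+P C4.

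The log2 fold change of *Dgkz* was 1.13 ± 0.68 in S+P C5 against Sensitized (adjusted p = 0.568) and 1.13 ± 0.84 in N+P C5 against Naive (adjusted p = 0.999). Without the 3 samples of few genes the same changes were 1.16 ± 0.25 (adjusted p = 0.0213) and 1.16 ± 0.31 (adjusted p = 0.124). With only the S+P C5 and Sensitized samples in the fit the adjusted p was 0.0361, and 1.06% of genes were called. DESeq2 gave 0.765. The effects of pregnancy in sensitized and naive mice differed by 0.00 ± 1.07 on the log2 scale (adjusted p = 1), and by 0.00 ± 0.39 (adjusted p = 1) without the 3 samples of few genes. Against S+P C4, S+P C5 stood 1.11 ± 0.59 higher (adjusted p = 0.437), and 0.87 ± 0.25 (adjusted p = 0.213) without the 2 S+P C4 samples of few genes, the lower of which held 2 counts of *Dgkz*.

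The other subsets were intermediate or spread out. N+P C1 samples held 74.2, 92.1 and 142 CPM, all above Naive, as were 4.22% of all genes, and the log2 fold change was 0.58 ± 0.83 (adjusted p = 1), or 0.60 ± 0.31 (adjusted p = 0.813) without the samples of few genes. S+P C7 samples held 87.2, 28.5, 121, 180.03 and 98.7 CPM and overlapped with both S+P C5 and Sensitized. *Dgkz* shares 222 exonic bases with *Gm9821* on the opposite strand, which had 1986 counts in all libraries against 120297 for *Dgkz*, and the strand setting of the counting is not stated.

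*Dgka* (ENSMUSG00000025357, chr10:128554743-128584282, minus strand), the other kinase, had a different order, with its highest means in mice that had never been grafted. Naive samples held 709, 934 and 896 CPM, N+P C1 938, 959.8 and 911 CPM, and N+P C5 715, 719 and 687 CPM. Sensitized samples held 751, 294, 458 and 455 CPM. S+P C5 ranged from 342 to 528 CPM (median 388), S+P C4 from 66.9 to 729.6 CPM (median 326), and S+P C7 samples held 251, 359.9, 328, 385 and 367 CPM. All S+P C5 samples lay below all N+P C5 samples, as did 1.7% of all genes, and all N+P C5 samples lay below all N+P C1 samples, as did 5.29%. Sensitized replicate 1, at 751 CPM, overlapped with Naive.

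For S+P C5 against N+P C5 the log2 fold change of *Dgka* was -0.78 ± 0.37, with an unadjusted p of 0.0426 and an adjusted p of 0.841. Without the 3 samples of few genes it was -0.79 ± 0.25 (adjusted p = 0.579). Sensitized against Naive gave -0.79 ± 0.41 (adjusted p = 0.624) and, without those samples, -0.80 ± 0.28 at an unadjusted p of 0.00767 (adjusted p = 0.386). N+P C5 against N+P C1 gave -0.41 ± 0.44 (adjusted p = 1), and -0.40 ± 0.30 (adjusted p = 0.929) without them. Within the grafted mice, S+P C5 against Sensitized was -0.26 ± 0.35 (adjusted p = 1), and -0.23 ± 0.24 (adjusted p = 0.748) without the samples of few genes. *Dgka* shares exonic bases with *Pmel* (354 bases) and *Pym1* (374 bases) on the opposite strand, which had 8568 and 17938 counts against 571102.

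**Figure D3:**
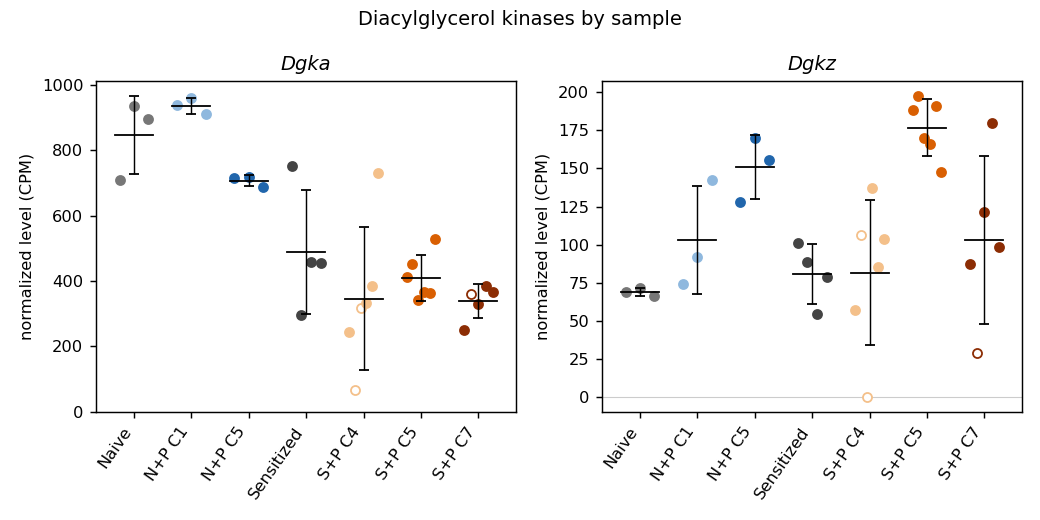
Normalized level (CPM) of the diacylglycerol kinases in each sample by group, with mean and SD; open circles are the 3 samples with under 9000 detected genes. *Dgkz* in S+P C5 and N+P C5 lies above all Naive and Sensitized samples, and *Dgka* in N+P C5, at 687 to 719 CPM, lies above all S+P C5 samples.

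The phosphatases were among the most abundant members per length, with medians over 30 samples of 104 RPKM for *Ptpn6* and 92.3 RPKM for *Ptpn22*, while *Ptpn2* was at 9.86 RPKM. *Ptpn22* (ENSMUSG00000027843, chr3:103767062-103819565), which acts on Lck and ZAP-70, varied least of the 9. Its group means ran from 501 ± 280.2 CPM (n = 3) in Naive to 812 ± 224 CPM (n = 6) in S+P C5. The 3 samples of few genes held 692, 1585 and 608 CPM, so *Ptpn22* was well detected in libraries that lacked *Itch*. Without them S+P C4 lay at 527 ± 56.4 CPM (n = 4), and S+P C5 stood 0.62 ± 0.24 above it on the log2 scale (unadjusted p = 0.0149, adjusted p = 0.339); with them the difference was 0.15 ± 0.28.

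*Ptpn6* (ENSMUSG00000004266, chr6:124697670-124715840, minus strand) was lower in S+P C7 than in Sensitized without overlap. Sensitized samples held 600.4, 356, 315 and 389 CPM and S+P C7 samples 266, 1.12, 210.0, 286 and 208 CPM. Across all genes, 1.38% lay wholly lower in that comparison, and the log2 fold change was -1.09 ± 0.80 (adjusted p = 0.887). The sample at 1.12 CPM was 1 of those with few genes, and without it the groups still did not overlap, as with 1.78% of all genes, at -0.76 ± 0.37 (unadjusted p = 0.0493, adjusted p = 0.416). Naive (299 to 426 CPM), N+P C1 (242 to 392 CPM) and N+P C5 (284 to 431 CPM) overlapped throughout. S+P C5 ranged from 50.2 to 403 CPM with a median of 319.7, its replicates 2 and 3 being lowest at 50.2 and 162 CPM.

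*Ptpn2* showed a similar scatter in the same 2 samples, with 19.0 and 18.6 CPM in S+P C5 replicates 2 and 3 and 63.2 to 114 CPM in the other 4. Replicates 2 and 3 came from 1 library each, with 12416 and 12652 genes detected against 15901 to 17338 in the other 4. The part of this difference in the values was not tested. N+P C5 samples held 61.0, 56.3 and 46.2 CPM, all below Naive (69.5 to 110.2 CPM) and N+P C1 (71.3 to 118 CPM). Among all genes 5.48% lay wholly lower in N+P C5 than in Naive and 5.29% wholly lower than in N+P C1. The log2 fold changes of -0.78 ± 1.13 and -0.75 ± 1.13 did not pass (adjusted p = 1 for both). Without the 3 samples of few genes they were -0.75 ± 0.46 (adjusted p = 0.599) and -0.75 ± 0.46 (adjusted p = 0.764). Those 3 samples held 0.469, 168 and 0.0467 CPM of *Ptpn2*.

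*Cish* (ENSMUSG00000032578, chr9:107173225-107179983), a target of STAT5, was lowest in Naive cells. Naive samples held 5.89, 5.04 and 2.95 CPM and Sensitized samples 17.2, 49.8, 29.9 and 23.3 CPM. N+P C5 samples held 26.6, 17.3 and 12.6 CPM and N+P C1 samples 18.6, 20.5 and 3.36 CPM. Sensitized and N+P C5 samples all lay above all Naive samples, where 3.78% and 7.41% of all genes lay wholly higher. The log2 fold change was 2.70 ± 1.34 for Sensitized (unadjusted p = 0.0531, adjusted p = 0.624) and 2.03 ± 1.35 for N+P C5 (adjusted p = 0.883). Without the 3 samples of few genes these were 2.70 ± 0.89 (adjusted p = 0.313) and 2.05 ± 0.89 (adjusted p = 0.581).

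Among the subsets of sensitized mice after pregnancy, S+P C4 had the highest mean of *Cish*, 116 ± 152 CPM (n = 6), set by replicate 2 at 418 CPM and replicate 3 at 109 CPM, both samples of few genes. Without them the mean was 41.5 ± 26.9 CPM (n = 4), with a range of 5.15 to 69.6 CPM. S+P C5 ranged from 5.63 to 46.1 CPM (median 14.6) and S+P C7 samples held 78.3, 0, 23.1, 21.1 and 4.18 CPM. S+P C5 against S+P C4 gave -2.61 ± 0.98 (unadjusted p = 0.0116, adjusted p = 0.294), and -1.15 ± 0.67 (adjusted p = 0.477) without those samples. DESeq2 called it lower with all samples, at an adjusted p of 0.0488, with 2.05% of all genes called lower. The difference between the effects of pregnancy in sensitized and naive mice was -2.70 ± 1.68 (unadjusted p = 0.118, adjusted p = 1). Its parts were -0.67 ± 1.02 for S+P C5 against Sensitized and 2.03 ± 1.35 for N+P C5 against Naive, both bound to the PD1+CD73+ gate. Without the samples of few genes the difference was -2.70 ± 1.11 (unadjusted p = 0.0216, adjusted p = 0.526).

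**Figure D4:**
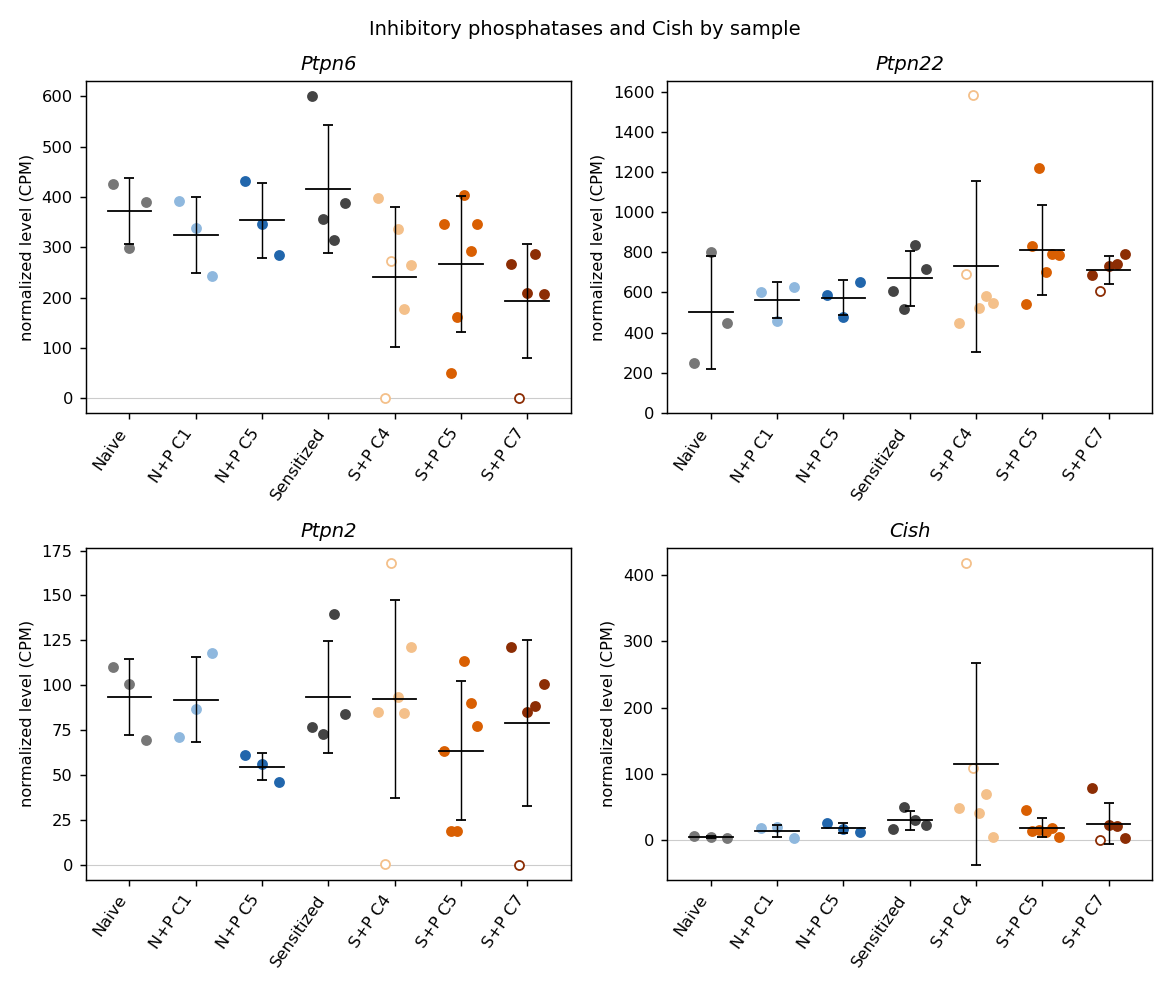
Normalized level (CPM) of the phosphatases and of *Cish* in each sample by group, with mean and SD; open circles are the 3 samples with under 9000 detected genes. *Ptpn6* and *Ptpn2* fall near 0 in 2 of these 3, and S+P C4 replicate 2, at 418 CPM, sets the mean of *Cish* in its group.

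Seen side by side, the 9 members did not share a direction. In S+P C5 against Sensitized 4 had a positive and 5 a negative log2 fold change, with a median of -0.17 beside -0.01 over all genes. In N+P C5 against Naive 5 were positive and 4 negative, with a median of 0.16 beside 0.00. In S+P C5 against S+P C4, 7 were positive and 2 negative, with a median of 0.25 beside 0.11. The median of all genes was shifted by 0.11 in that comparison and by -0.14 in S+P C4 against Sensitized, and values there are read relative to it. In N+P C5 against Naive *Rnf128*, *Dgkz* and *Cish* were wholly higher, beside 7.41% of all genes, and *Ptpn2* wholly lower, beside 5.48%. In S+P C5 against Sensitized *Rnf128* and *Dgkz* were wholly higher, beside 1.45% of all genes, and no member was wholly lower.

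**Figure D5:**
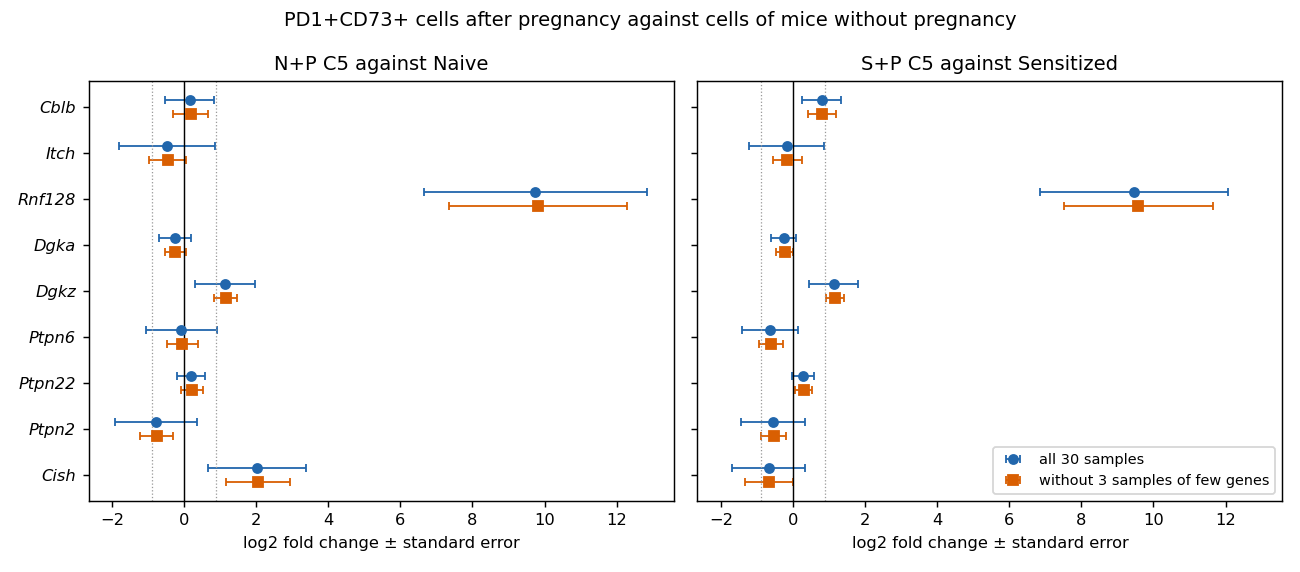
Log2 fold change ± SE of the 9 members in PD1+CD73+ cells after pregnancy, with all 30 samples (circles) and without the 3 samples of few detected genes (squares); dotted lines mark 0.9 in either direction. Estimates hardly move, while the SE of *Dgkz* in S+P C5 against Sensitized goes from 0.68 to 0.25. The SE is back-calculated from the F statistic and is a rough guide for *Rnf128*.

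Genes of the same pathways were counted from fixed lists. Among 8 other ligases and adaptors (such as *Ndfip1*, *Peli1* and *Cbl*), 8 other diacylglycerol kinases (*Dgkd*, *Dgkh* and *Dgke* the most abundant), 7 genes of diacylglycerol-dependent signalling (such as *Prkcq*, *Rasgrp1* and *Plcg1*) and 7 other SOCS genes, 0 were called in each of the 11 comparisons. Of 7 substrates and 19 other phosphatases and inhibitory adaptors, 0 were called as well. Over these 6 lists, 44 of 616 gene and comparison values had an unadjusted p under 0.05 in edgeR, where 3.29% to 13.4% of all genes did in a comparison. DESeq2 called 16 of the 616, where it called 2.8% to 5.45% of all genes. Of 8 cytokine receptor chains, JAKs and STATs upstream of *Cish*, 1 passed in each of 3 comparisons. *Il2rb*, the shared IL-2 and IL-15 receptor chain, rose in Sensitized against Naive from 147 ± 24.4 (n = 3) to 452 ± 89.5 CPM (n = 4), a log2 fold change of 1.62 (adjusted p = 0.0921). *Il7r*, the IL-7 receptor chain, fell by 2.28 in S+P C5 against Sensitized (adjusted p = 0.0447) and by 3.57 in S+P C7 (adjusted p = 0.00098), from 1114 ± 310.3 CPM in Sensitized to 230.0 ± 45.8 and 94.0 ± 43.5 CPM.

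Without the 3 samples of few genes more of these lists passed. *Ptpn11* (SHP-2) and *Ptpn13* rose in both PD1+CD73+ groups against their controls. *Ptpn11* was at 179 ± 23.0 CPM in N+P C5 against 24.8 ± 3.2 CPM in Naive (2.87, adjusted p = 0.0248), and at 207 ± 97.3 CPM in S+P C5 against 40.7 ± 18.7 CPM in Sensitized (2.36, adjusted p = 0.0179). *Fyn*, a Src family kinase and substrate of the phosphatases, rose by 1.29 (adjusted p = 0.0387) and 1.09 (adjusted p = 0.0213), and *Pik3r1*, a substrate of CBL-B, fell by 1.22 in S+P C5 against Sensitized (adjusted p = 0.0587). *Ptpn11*, *Ptpn13*, *Fyn* and *Pik3r1* were singled out after their values had been seen.

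Markers of other cells differed between groups and samples. *Itgax*, in the dendritic cell list, and *Fcer1g*, in the myeloid list, can also be expressed by memory CD8 T cells and NK cells. The 4 CD4 T cell markers summed to 11.3 to 50.5 CPM in N+P C5 against 2.35 to 8.61 CPM in Naive, and the 4 B cell markers to 33.3 to 62.8 CPM against 11.6 to 34.1 CPM. The 4 erythroid markers summed to 3.91 to 136 CPM in N+P C5 against at most 2.76 CPM in Naive, the 3 NK cell markers to 2.42 to 9.43 CPM against at most 0.0823 CPM, and the 4 dendritic cell markers to 2.95 to 15.8 CPM against at most 0.907 CPM. Of these sums the B cell markers overlapped between the groups, as did the myeloid markers (8.17 to 17.4 CPM in N+P C5, 1.59 to 56.9 CPM in Naive) and the gamma delta T cell markers (1.53 to 9.21 and 0.832 to 6.34 CPM).

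Between S+P C5 and Sensitized, NK cell markers summed to 0 to 62.2 CPM (median 4.51) against 53.3 to 126 CPM, and dendritic cell markers to 0 to 30.2 CPM (median 11.8) against 29.8 to 87.3 CPM. CD4 T cell markers were at 5.29 to 25.1 CPM against 4.82 to 37.3 CPM, B cell markers at 0 to 26.0 CPM against 7.44 to 14.7 CPM, myeloid markers at 26.4 to 80.9 CPM against 4.05 to 358 CPM, and erythroid markers at 2.24 to 59.5 CPM against 0.0911 to 5.80 CPM. Gamma delta T cell markers were at 0 in S+P C5 and at 1.12 to 5.09 CPM in Sensitized. Apart from the erythroid sum of 18829 CPM in S+P C7 replicate 3, the highest was 414 CPM in S+P C4 replicate 3. *Cd4* and *Ncr1*, from the CD4 T and NK cell lists, were at 0 in all S+P C5 and N+P C5 samples. The sums of those lists in these samples came from their other genes. The part of other cells in the values of *Rnf128* and *Dgkz* was not tested.

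The genes behind the gates followed the sort in part. *Pdcd1*, which encodes PD1, had a mean of 245 ± 148 CPM in N+P C5, 274 ± 135 CPM in S+P C5 and 285 ± 236 CPM in S+P C7, against 3.53 ± 2.73 CPM in Naive and 48.4 ± 8.08 CPM in Sensitized. The lowest S+P C7 sample held 0.0467 CPM. *Nt5e*, which encodes CD73, was at 112 ± 53.0 CPM in S+P C5 and 26.2 ± 21.1 CPM in S+P C7, and at 122 ± 77.3 CPM in Sensitized.

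Among all genes tested, those whose centred log2 CPM stayed nearest to *Rnf128* over the 30 samples were *Flywch2*, *Igsf9b* and *Ccdc141*, with root mean square differences of 2.19 to 2.24 where the median gene was at 3.70. For *Itch* they were *Scfd1*, *Syvn1* and *Fgfr1op2* (0.638 to 0.703, median 2.87), and for *Cish* they were *Cln3*, *Rmdn1* and *Slk* (1.2 to 1.26, median 2.96).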

How the data were processed

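RNA-Seq libraries of sorted OVA:Kb-specific CD8+ T cells were made with SmartSeq2 and Nextera XT. The authors deposited raw read counts per Ensembl gene, made with Cutadapt 3.4, STAR 2.6.1b and featureCounts 2.0.1 on GRCm39 with non-unique reads removed; the strand setting and annotation release are not given in the sources used here. Technical libraries were summed per replicate, 1 library with the same counts in 2 groups was left out of both, and a near-identical pair was averaged. Genes passing filterByExpr (minimum count 10) were tested with edgeR 4.0.16 (TMM, quasi-likelihood, robust, two-sided, 1 fit of 7 groups) and Benjamini-Hochberg adjustment over 19657 genes. The fit had no block for the mouse, so subsets of the same number were compared as unpaired. The SE of an edgeR log2 fold change was back-calculated as its absolute value over the square root of the F statistic. Calls needed an adjusted p under 0.1 with a log2 fold change beyond 0.9 in either direction. These are the thresholds of the study's methods, which applied them to DESeq2 and not to edgeR. DESeq2 1.42.0 and the other alternatives are in the closing section. The script was tested on simulated data. RPKM used GENCODE exon lengths, and promoter windows came from RefSeq (GRCm38.p6) placed on GRCm39 by exact match. Library totals were 6636532 to 32625243 counts, so a gene at 0 in a sample may lie under what the depth can show. Named genes were the 9 members, called genes of the lists, the most abundant genes of each list and the nearest profiles. The members and lists were chosen with earlier results of these data known. Replicates are numbered mice, and subsets with the same number share a mouse by their column names. Deviations of such pairs correlated at a mean r of 0.0473 (N+P C5 with N+P C1), 0.109 (S+P C5 with S+P C4) and 0.116 (S+P C7 with S+P C5). Groups of different mice, matched by number, gave a mean r of 0.0102 (N+P C5 with Naive) to 0.0727 (S+P C4 with Sensitized). Pairs of other numbers gave a mean r of -0.0236, -0.0174 and -0.0191 in the 3 shared-mouse comparisons. There the same number was the best match in 3 of 3, 4 of 6 and 5 of 5 cases. Between groups of different mice it was best in 1 of 3 (S+P C7 with Sensitized) to 3 of 3 cases (such as Sensitized with Naive). The pairing therefore rests on the names.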

Additional observations from a re-analysis of the deposited data

Results flagged for a closer look

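Of 36 groups of 4 to 6 samples tested over the members, 6 held a sample far from the others by Dixon's criterion. Independent normal values meet it in about 1 of 20 groups. CPM were tested untransformed and the same samples recur over the members, so that rate does not apply here. In 4 of the 6 the sample was 1 of those with under 9000 detected genes. *Cish* was highest in S+P C4 replicate 2, at 418 CPM with the next sample at 109 CPM. *Ptpn22* was highest in S+P C4 replicate 3, at 1585 CPM with the next at 692 CPM. *Itch* was lowest in S+P C7 replicate 3, at 2.85 CPM with the next at 74.4 CPM, and *Ptpn6* was lowest in the same sample, at 1.12 CPM with the next at 208 CPM. The other 2 were in samples of ordinary gene number. *Cish* was highest in S+P C5 replicate 1, at 46.1 CPM with the next at 19.3 CPM, and *Ptpn2* in Sensitized replicate 3, at 139.7 CPM with the next at 83.7 CPM.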

How the results depend on the processing

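No member was called in any comparison in edgeR with all samples, and over 99 member and comparison pairs the alternatives gave 2284 values, of which 11 were calls; 138 values changed sign and 0 of these were calls. DESeq2 called 1 member in each of 6 comparisons, fitting only the groups compared called 2 in S+P C5 against Sensitized, and leaving out the 3 samples under 9000 detected genes called 2 in the S+P C5 comparison with Sensitized and 1 in that of N+P C5 with Naive. Leaving out each replicate in turn gave 0 to 0 calls in every comparison. With the replicate number as a block, 0 members were called in every comparison, where *Dgkz* in S+P C5 against Sensitized had an adjusted p of 0.413 and *Rnf128* 0.558; those 2 groups share only a number. Over the alternatives, *Rnf128* in S+P C5 against Sensitized ranged from 8.61 to 10.95 (adjusted p 1.39e-06 to 0.558) and *Dgkz* from 0.99 to 1.27 (adjusted p 0.0213 to 1). The count of all genes called moved more, and is given with all samples, by DESeq2, without the 3 samples and with only the groups compared. It was 30, 1071, 151 and 98 for Sensitized against Naive, 0, 740, 19 and 0 for N+P C1 against Naive, 9, 996, 119 and 57 for N+P C5 against Naive, and 1, 827, 14 and 51 for N+P C5 against N+P C1. It was 1, 911, 6 and 0 for S+P C4 against Sensitized, 14, 979, 201 and 142 for S+P C5 against Sensitized, and 6, 742, 64 and 1 for S+P C7 against Sensitized. It was 6, 957, 36 and 2 for S+P C5 against S+P C4, 0, 551, 0 and 0 for S+P C7 against S+P C5, 0, 749, 16 and 2 for S+P C5 against N+P C5, and 5, 811, 27 and 30 for the difference between the effects of pregnancy. The cause of these shifts was not tested. *Rnf128* had 3 counts or fewer in 12 of 30 samples, the most of the 9 members, and whether depth or capture sets these values was not tested.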
